A study of Mus musculus with 9 samples.

Results

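De novo lipogenesis in the liver was followed through 10 genes of the pathway, the transcription factor gene Srebf1 and the genes Acly, Acss2, Acaca, Acacb, Fasn, Scd, Elovl6, Me1 and Thrsp. They were picked by name, with earlier results of these data known, and all 10 were found among the 19686 genes of the count table. Counts of these genes set beside shares of all genes are therefore descriptions, not tests of the set. Hepatic RNA came from 9 male Wistar rats, 3 in each of 3 groups. The control group drank purified water, the model group drank 15% fructose, and both were gavaged with saline. The DSS group drank 15% fructose and was gavaged with an extract of Danggui-Shaoyao-San (DSS), a Chinese herbal formula, at 1.8 g/kg. By the methods of the study this was the 50% methanol extract, so a water extract of the formula was not measured here. Treatment lasted 8 weeks, the rats were fasted for 12 h and anaesthetised with chloral hydrate before the liver was taken, and their age was not given in the sources used here. The labels name the mouse as organism, but the strain is a rat strain and the identifiers of the genes are rat identifiers. An extract without fructose was not given to any of these groups, so its effect on rats drinking water cannot be told apart from its effect on fructose drinking.

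De novo lipogenesis turns surplus sugar carbon into fatty acids. Acetyl-CoA is made in the cytosol from citrate or acetate, carboxylated to malonyl-CoA, joined into palmitate at the expense of NADPH, and then elongated and desaturated before it enters triglyceride. The liver is a main site of the pathway, where insulin and sugars induce it, in large part through SREBP-1c, and where fasting lowers it.

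The total count per library ran from 14345819 to 21978523 in control, from 14922429 to 26837227 in model and from 18331311 to 21180914 in DSS rats. Levels are given as CPM, counts scaled per 1e+06 of the TMM-normalised library size. The smallest count of any of the genes other than Elovl6 was 479, for Me1 in the DSS group. There the spread between rats was also small, with an SD of 1.94 CPM at a mean of 26.6 CPM. Counting error was therefore not small beside the spread in every case. The edgeR p-values set the difference between groups against a variation within groups that is estimated with information shared between genes. Pairs of rats within a group differed by more than counting error (chi-square per gene of 19.6 to 70.8, where counting error alone gives about 1). On the second principal component, with 27.03% of the variance, model replicate 1 stood apart at -35.18, with the next library at -6.76. The hepatocyte markers matched in the table, 9 of 10, were all above 0 in every library.

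The 10 genes together held a small part of a library in the fructose and extract group and a much larger part elsewhere. In the control group they took 1.65%, 2.27% and 1.79% of all counts in replicates 1 to 3. In the model group they took 1.15%, 1.29% and 1.42%. In the DSS group they took 0.0789%, 0.122% and 0.127%. The 3 DSS libraries lay far below every other library, and the model libraries lay below the control libraries without overlap. These are shares of raw counts, to which the TMM scale was not applied. Most counts of the 10 genes in the control and model libraries were from Scd, at 56.9% to 78.4%, against 4.10% to 17.7% in the DSS libraries. In CPM, Scd overlapped between control rats, at 8725 to 13956, and model rats, at 8039 to 9732. The other 9 genes alone gave 0.607% to 0.843%, 0.2798% to 0.612% and 0.0685% to 0.122% of counts in control, model and DSS libraries. In bulk liver, fewer cells of a type and less RNA per cell cannot be told apart.

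**Figure D1:**
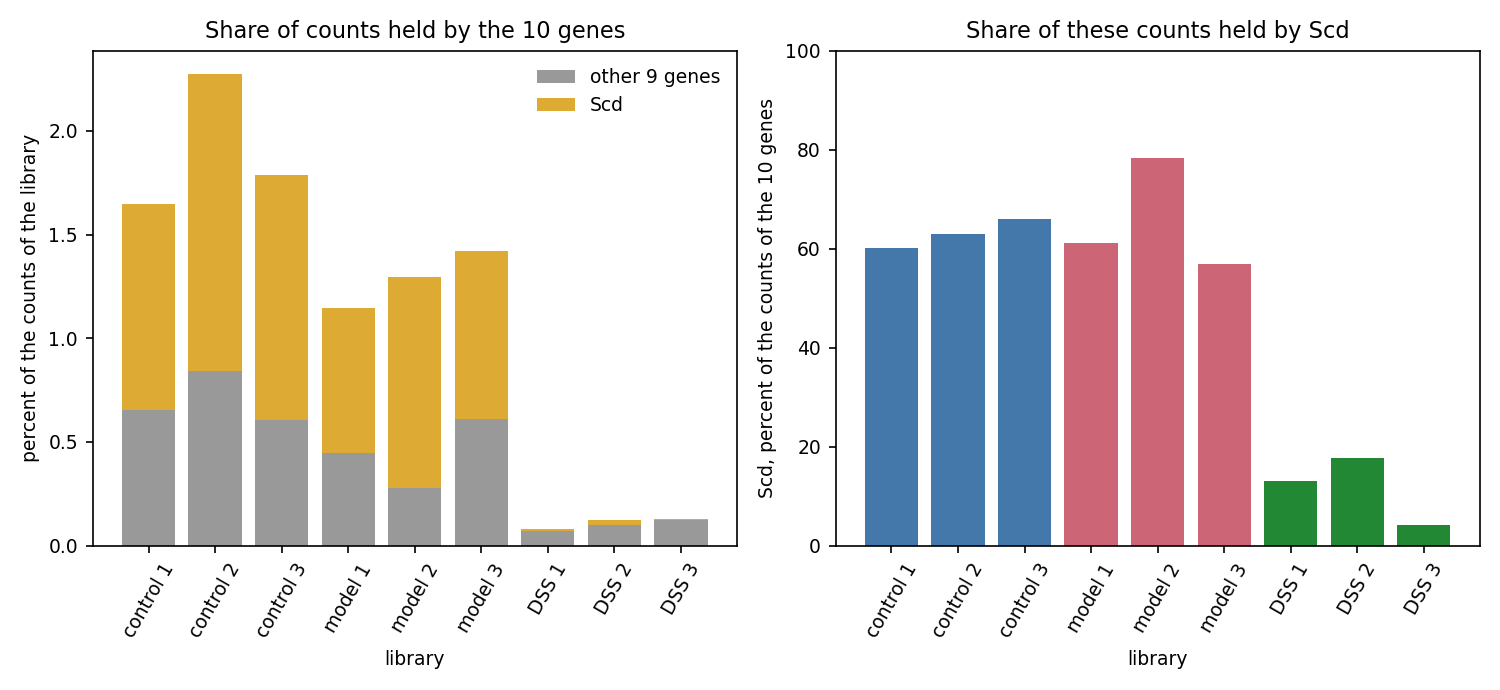
Left, percent of the counts of each library taken by the 10 lipogenesis genes, stacked as Scd and the other 9; right, percent of those counts taken by Scd, each bar being 1 library. The DSS libraries hold 0.0789% to 0.127% of counts in these genes, and the lowest of the other libraries holds 1.15%.

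Srebf1 (ENSRNOG00000003463) encodes SREBP-1, a membrane-bound transcription factor whose cleaved form activates lipogenic genes. Its level was 568, 860 and 603 CPM in control replicates 1 to 3, 454, 214 and 608 CPM in model replicates 1 to 3, and 170, 219 and 242 CPM in DSS replicates 1 to 3. The DSS rats lay below all control rats, whereas model replicate 2 lay among the DSS rats and model replicate 3 among the control rats. Srebf1 fell in the DSS group to 31.0% of the control mean, a log2 change of -1.69 ± 0.198 (fitted fold change on the log2 scale ± SE) with an FDR of 0.00244 by edgeR, lower in 3 of 3 rats. Against the model group the log2 change was -1.01 ± 0.348, and the edgeR FDR of 0.489 did not pass. Without model replicate 2 these values became -1.34 and 0.0552. Over all fits with 1 rat left out the log2 change ran from -1.34 to -0.66. The edgeR FDR was highest, at 0.996, without DSS replicate 1. The model group did not pass against the control group, at -0.67 ± 0.358 (edgeR FDR = 0.484). In order of mean level the groups were control, model and DSS at 677 ± 159, 425 ± 198 and 210 ± 36.9 CPM (mean ± SD, n = 3), and the ranges of neighbours in that order overlapped. Without DSS replicate 2 the edgeR FDR against the control group was 0.0106, just past the threshold of 0.01, and with all 9 libraries in one fit it was 0.0267.

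The first steps make acetyl-CoA in the cytosol. Acly (ENSRNOG00000016924), ATP citrate lyase, which splits citrate, stood at 1184, 1503 and 915 CPM in the control rats, 924, 405 and 1049 CPM in the model rats, and 104, 141 and 243 CPM in the DSS rats. All DSS rats lay below all others, and control and model rats overlapped. Acly fell in the DSS group to 13.5% of the control mean, with a log2 change of -2.89 ± 0.359 (edgeR FDR = 0.00811). Against the model group it was -2.28 ± 0.425 with an edgeR FDR of 0.0925, above the threshold, and DESeq2 gave an FDR of 5.47e-07. The call against the control group depended on single rats, since the edgeR FDR was 0.0372 without DSS replicate 2, 0.0393 without control replicate 1, 0.025 without control replicate 2 and 0.0142 without control replicate 3, and it was 0.0303 with no filter and 0.0346 with the replicate number as a block. Acss2 (ENSRNOG00000018755), the cytosolic synthetase that makes acetyl-CoA from acetate, moved less. Its level was 170, 243 and 173 CPM in the control rats, 131, 95.0 and 150 CPM in the model rats, and 76.5, 70.3 and 115 CPM in the DSS rats. Model and DSS rats overlapped, and both groups lay below the control rats. The log2 change was -1.16 ± 0.221 for DSS against control (edgeR FDR = 0.0223, and 0.0846, 0.0533 and 0.0532 without DSS replicate 1, DSS replicate 2 and control replicate 2, but 0.00961 without DSS replicate 3 and 0.0044 with library size alone), -0.64 ± 0.215 for model against control (edgeR FDR = 0.261) and -0.52 ± 0.237 for DSS against model (edgeR FDR = 0.655).

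Malonyl-CoA is made by a pair of acetyl-CoA carboxylases. Acaca (ENSRNOG00000034013) encodes the cytosolic enzyme that supplies fatty acid synthase. Its level was 212, 225 and 185 CPM in the control rats, 88.4, 230 and 195 CPM in the model rats, and 40.4, 38.0 and 45.9 CPM in the DSS rats. The DSS rats lay close together and below all others, and model replicate 1 alone lay between them and the remaining rats. Acaca fell in the DSS group to 20.01% of the control mean, at a log2 change of -2.32 ± 0.128, with the lowest edgeR FDR of these genes in that comparison, 3.9e-05. Against the model group the value was -2.04 ± 0.322 with an edgeR FDR of 0.0499. Without model replicate 1 it was -2.35 with an edgeR FDR of 0.00175, which passes. Leaving out any other rat took the edgeR FDR above 0.05, to 0.2202, 0.233 and 0.156 without DSS replicates 1, 2 and 3 and 0.0957 and 0.162 without model replicates 2 and 3, and so did DESeq2 size factors (0.0503), library size alone (0.0982), no filter (0.0707) and the replicate block (0.102).

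Acacb (ENSRNOG00000000658) encodes the carboxylase bound to the mitochondrial outer membrane, whose malonyl-CoA holds back carnitine palmitoyltransferase 1. The control rats stood at 161, 202 and 116 CPM, the model rats at 53.0, 70.4 and 96.4 CPM, and the DSS rats at 68.6, 78.0 and 64.1 CPM. Every fructose-drinking rat lay below every control rat, with model and DSS rats mixed. For DSS against model the log2 change was -0.05 ± 0.215 (edgeR FDR = 0.968), with no direction kept when single rats were left out. Model against control gave -1.13 ± 0.262 with an edgeR FDR of 0.117, and DESeq2 gave an FDR of 0.00272. DSS against control gave -1.19 ± 0.188, with an edgeR FDR of 0.0101 just above the threshold, which ran from 0.00261 without control replicate 3, a pass, to 0.0468 without DSS replicate 1. Library size alone, no filter and the replicate block gave it edgeR FDRs of 0.00771, 0.00135 and 0.00700. Whether the change of Acacb between groups differs from that of Acaca was not tested.

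Fatty acid synthase, encoded by Fasn (ENSRNOG00000045636), builds palmitate from acetyl-CoA and malonyl-CoA. Its level was 1560, 2788 and 1736 CPM in the control rats, 1603, 629 and 2355 CPM in the model rats, and 79.3, 147 and 151 CPM in the DSS rats. The DSS rats lay far below all others, and among the model rats replicate 2 was the lowest. Fasn fell in the DSS group to 6.19% of the control mean (log2 change -4.02 ± 0.349, edgeR FDR = 0.00183). Without DSS replicate 2 that FDR was 0.0106 by edgeR. Against the model group it stood at 8.21% of the mean, a log2 change of -3.60 ± 0.498 with an edgeR FDR of 0.0329, which passes at 0.05 and not at 0.01. Without model replicate 2, edgeR gave -3.98 and an FDR of 0.00669. Without model replicate 1 it gave -3.57 and an FDR of 0.171, and without model replicate 3 or any 1 DSS rat the edgeR FDR was 0.0785 to 0.158. With no filter it was 0.173 and with the replicate block 0.0897 by edgeR, so the pass at 0.05 depended on these settings too. Control and model rats overlapped, at -0.40 ± 0.447 (edgeR FDR = 0.744).

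Scd (ENSRNOG00000013552) encodes stearoyl-CoA desaturase, which makes oleate and palmitoleate from saturated fatty acids. The control rats had 8725, 13956 and 11256 CPM and the model rats 8039, 9732 and 8166 CPM. The DSS rats had 104, 213 and 57.0 CPM. The DSS rats lay far below all others, with the highest of them at 213 CPM and the lowest other rat at 8039 CPM. Scd fell to 1.44% of the model mean, a 69.2-fold difference of means and a log2 change of -6.11 ± 0.513 (edgeR FDR = 0.00266). Against the control group the log2 change was -6.51 ± 0.613 (edgeR FDR = 0.00532). Control and model rats overlapped, with -0.39 ± 0.209 (edgeR FDR = 0.480). The calls of Scd depended on which rat was left out. Against the model group edgeR gave an FDR of 0.0311 without DSS replicate 1, and of 0.0362, 0.0119 and 0.0149 without model replicates 1, 2 and 3, while it was 0.0022 and 0.00704 without DSS replicates 2 and 3 and the log2 change stayed between -6.73 and -5.76. Against the control group the edgeR FDR was 0.0347 without DSS replicate 1, and 0.0231, 0.0206 and 0.0182 without control replicates 1, 2 and 3, but 0.000835 and 0.0025 without DSS replicates 2 and 3. With no filter the edgeR FDR was 0.0116 against the model and 0.0169 against the control group. Of its close relatives, Scd2 had 19.7 ± 2.61, 12.4 ± 6.83 and 13.3 ± 1.11 CPM (mean ± SD, n = 3) in the control, model and DSS groups.

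Elovl6 (ENSRNOG00000010468), the elongase that extends palmitate to stearate, was nearly absent from the counts. Its reads numbered 11, 11 and 3 in the control rats, 3, 1 and 1 in the model rats, and 0, 1 and 1 in the DSS rats. In CPM the control rats, at 0.1997 to 0.657, lay above the model rats, at 0.0617 to 0.128, and these above the DSS rats, at 0 to 0.0540. Model replicates 2 and 3 and DSS replicates 2 and 3 had 1 read each, so library size alone sets their order in CPM. Elovl6 did not pass the filter on low counts in any comparison and was left out of the main fits, and no fold change is given because every model and DSS rat had 3 reads or fewer. With no filter, edgeR gave it an FDR of 0.346 for model against control, 0.825 for DSS against model and 0.0477 for DSS against control. Why its reads were so few was not tested, and the annotation release behind the counts is not given in the sources used here.

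Me1 (ENSRNOG00000009715), cytosolic malic enzyme, supplies NADPH for the synthase. It stood at 124, 189 and 62.8 CPM in the control rats, 131, 97.7 and 110 CPM in the model rats, and 26.3, 28.6 and 24.7 CPM in the DSS rats. The DSS rats were nearly alike and below all others, and the control rats were spread so widely that they enclosed the model rats. Me1 fell to 23.5% of the model mean, at a log2 change of -2.08 ± 0.156 with an edgeR FDR of 0.0019, and of the 9 tested lipogenesis genes it and Scd were those called in that comparison. The edgeR FDR was 0.0209, 0.0132 and 0.0156 without DSS replicates 1, 2 and 3 and 0.0127 without model replicate 3, and 0.0233 with all 9 libraries in one fit and 0.0126 with the replicate block, each past 0.01. Against the control group, where the spread was wider, the log2 change of -2.24 ± 0.400 had an edgeR FDR of 0.0323, which was 0.127, 0.0950 and 0.0960 without DSS replicates 1, 2 and 3 and 0.0939 without control replicate 1. With no filter it was 0.0845 by edgeR, and with all 9 libraries in one fit 0.00718. Without control replicate 3, the lowest control rat, the change was -2.56 with an edgeR FDR of 0.00042.

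Thrsp (ENSRNOG00000012404) encodes the Spot 14 protein, a nuclear and cytosolic protein linked to the induction of lipogenesis. Its level was 1780, 2225 and 2007 CPM in the control rats, 1737, 944 and 1614 CPM in the model rats, and 129, 272 and 449 CPM in the DSS rats. The groups formed 3 separate ranges, with the DSS rats lowest. The DSS rats had 14.1% of the control mean, a log2 change of -2.82 ± 0.460 (edgeR FDR = 0.0249), and 19.8% of the model mean, at -2.33 ± 0.445 (edgeR FDR = 0.0984). Neither passed at 0.01, although without DSS replicate 1 or 3 the edgeR FDR against the control group was 0.00324 or 0.00711. It rose past 0.05 without DSS replicate 2, to 0.0866, and without control replicates 1, 2 and 3, to 0.0722, 0.0776 and 0.0701 (edgeR FDR). With no filter it was 0.0705 by edgeR, and with all 9 libraries in one fit 0.00727. The difference between model and control, -0.48 ± 0.243, had an edgeR FDR of 0.451.

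**Figure D2:**
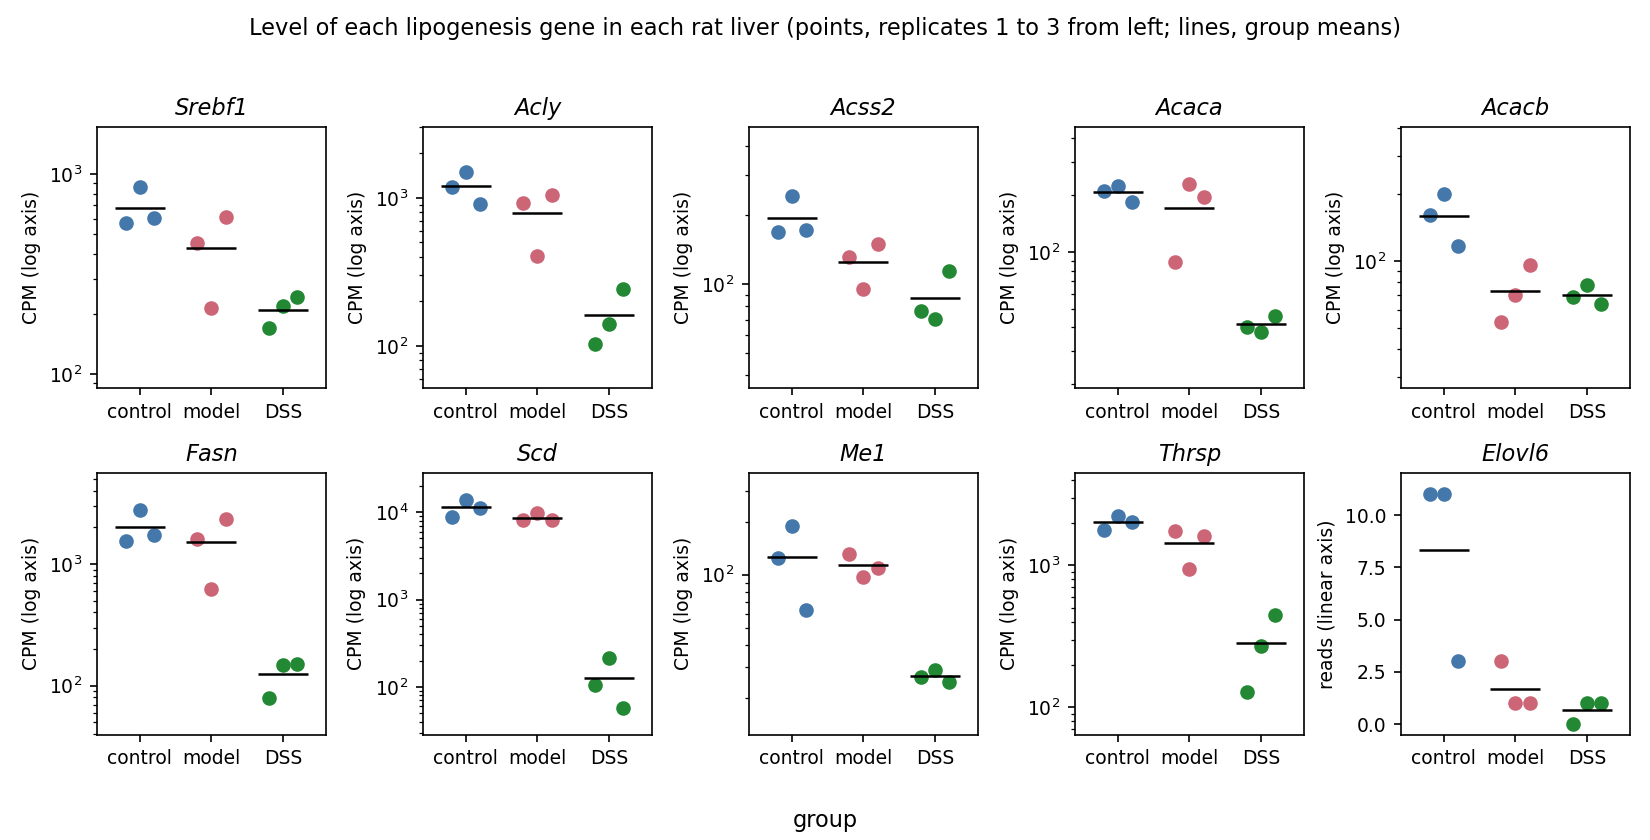
Level of each lipogenesis gene in each rat, as CPM on a log axis and for Elovl6 as reads on a linear axis, by group; points are replicates 1 to 3 from left to right and lines are group means. The DSS rats lie below all control and model rats for Acly, Acaca, Fasn, Scd, Me1 and Thrsp, and among the model rats for Acacb.

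Fructose alone, the comparison of model with control, asks what the sugar did to the pathway. By edgeR 0 of the 9 tested genes were called, where a call needs a log2 change of 0.5 or more in size and an FDR no higher than 0.01. Of all 12486 genes tested, 0.04% were called lower and 0.04% higher. At an FDR of 0.05 the count was again 0, against 0.304% lower and 0.296% higher of all genes. An unadjusted p under 0.05 was reached by 2 of the 9, Acacb and Acss2, beside 13.2% of all genes in either direction, and DESeq2 called 1, Acacb, against 1.03% of all genes called lower. All 9 fold changes were below 0, with a median of -0.48 where that of all genes was 0.00, but for Acaca and Me1 the sign turned when a single rat was left out, to 0.02 for Acaca without model replicate 1 and to 0.27 for Me1 without control replicate 2. Acacb, Thrsp and Acss2, 3 of 9, had every model rat below every control rat, against 9.94% of all genes.

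The extract on top of fructose, DSS against model, gave 2 of 9 called lower, Scd and Me1, against 0.08% of the 12502 genes tested called lower and 0.056% higher. At an FDR of 0.05 edgeR added Fasn and Acaca for 4 of 9, against 0.336% lower and 0.12% higher of all genes, and with a rat left out 2 to 4 passed there, Scd and Me1 each time. DESeq2 called 6 of 9 lower, with 0.848% of all genes. The same number, 6 of 9, did not overlap between the groups, where 7.85% of all genes were lower without overlap. The median log2 change was -2.08, and that of all genes 0.00. The number called was 0 without DSS replicate 1 or without model replicate 3, and 1 without DSS replicate 2 or 3. Without model replicate 1, which stood apart, it was again 2, with Acaca called in place of Scd.

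For DSS against control, 5 of 9 were called lower, Srebf1, Acly, Acaca, Fasn and Scd, with 0.823% of the 12633 genes tested called lower and 0.657% higher. At an FDR of 0.05 edgeR called all 9 lower, against 3.29% lower and 3.07% higher of all genes, and so did DESeq2 at 0.01, against 3.01%. With a rat left out edgeR passed 6 to 8 of the 9 at an FDR of 0.05, a count added after seeing the data, and Srebf1, Acly, Acaca, Acacb, Fasn and Scd were among them each time. Each of the 9 had every DSS rat below every control rat, which held for 15.2% of all genes. Their median log2 change was -2.32, and that of all genes -0.01. The means of all 9 ran in the order control, model and DSS, in which the step from control to model passed for 0 of 9 by edgeR and the step from model to DSS for Scd and Me1. Without DSS replicate 2 the number called was 2, and without control replicate 1 or 2 it was 3. The 3 comparisons share rats, each group entering 2 of them, so their values are not independent of each other. Exact permutation with 3 rats a side has a smallest p of 0.1 and was not used.

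**Figure D3:**
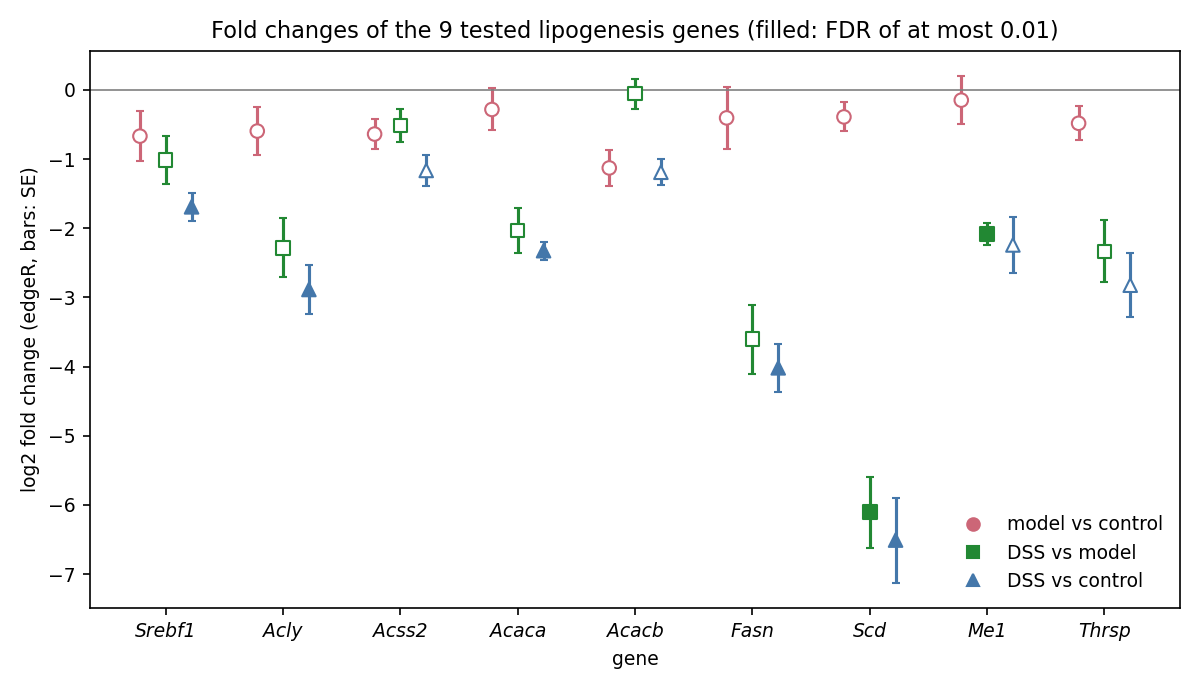
Log2 fold change of each tested lipogenesis gene by edgeR in the 3 comparisons, with SE as bars and filled symbols for genes called at an FDR of at most 0.01. Model against control lies between -1.13 and -0.15, and DSS against control reaches -6.51 for Scd.

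Rats of the same group also differed from each other. Model replicate 2 was the lowest model rat for Srebf1, Acly, Fasn, Thrsp, Acss2 and Me1, and the highest for Acaca and Scd. As deviations of log2 CPM from the group mean, it stood at -0.86 for Srebf1, -1.08 for Fasn and -0.85 for Acly, and at 0.53 for Acaca and 0.18 for Scd. Over all 36 pairs of the 9 tested genes, the Pearson r of these deviations over the 9 libraries ran from -0.49 to 0.985 with a median of 0.330, and from -0.49 to 0.973 with a median of 0.398 over 8 libraries without model replicate 2. Without model replicate 1 they ran from -0.48 to 0.985 with a median of 0.354, and single pairs moved more, Acaca with Acacb from 0.605 to 0.120, Acaca with Me1 from -0.08 to 0.496 and Acly with Acaca from -0.22 to 0.153. The highest r in each case was that of Srebf1 with Fasn. For Scd the r with Srebf1 was -0.07, with Fasn 0.00, with Acly -0.38 and with Acss2 -0.49 over the same 9 libraries. With Acaca it was -0.04, with Thrsp -0.30, with Acacb 0.30 and with Me1 0.19. In the DSS group Scd was highest in replicate 2 and lowest in replicate 3, at deviations of 0.97 and -0.92. Acacb and Me1 were also highest in replicate 2 and lowest in replicate 3, while Srebf1, Acly, Acaca, Fasn, Thrsp and Acss2 were highest in replicate 3. Acaca had an r of -0.27 with Srebf1, which was 0.591 without model replicate 2, so its sign rested on that rat. These are descriptions over deviations from 3 group means, and the points share libraries, depth and normalisation.

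**Figure D4:**
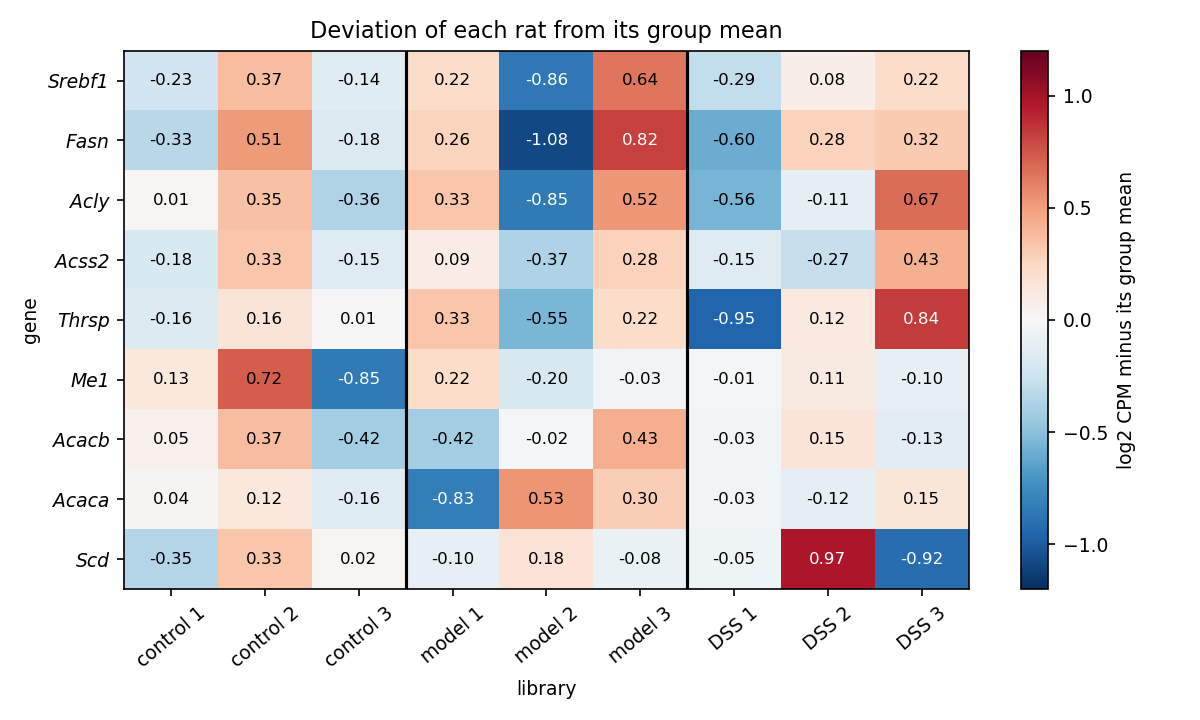
Difference of the log2 CPM of each rat from its group mean, for the 9 tested lipogenesis genes (lines of the grid) in the 9 libraries (columns), with black lines between groups. Srebf1, Fasn and Acly are all lowest in model replicate 2, at -0.86, -1.08 and -0.85, where Acaca stands at 0.53.

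In the list of SREBP regulation, 17 genes tested, 0 were called by edgeR in any of the 3 comparisons, with median log2 changes of -0.01 for model against control, 0.00 for DSS against model and 0.17 for DSS against control. In the same order, an unadjusted p under 0.05 was reached by 6, 3 and 11 of them, and DESeq2 called 1, 0 and 4. Of all tested genes in either direction, which stand beside these counts and those of the lists below, the p was under 0.05 for 13.2%, 8.02% and 24.3%, and DESeq2 called 2.05%, 1.18% and 6.09%. By edgeR 0.04%, 0.08% and 0.823% of all genes were called lower and 0.04%, 0.056% and 0.657% higher. At an FDR of 0.05 edgeR passed 3 of the 17 list genes, all in DSS against control, where 3.29% of all genes passed lower and 3.07% higher. These were Insig2, which retains the SREBP complex in the endoplasmic reticulum, at 0.79 ± 0.194 (edgeR FDR = 0.0448), Usf2, a transcription factor of lipogenic promoters, at 0.54 ± 0.0941 (edgeR FDR = 0.012), and Mlx, the partner of ChREBP, at -0.50 ± 0.0972 (edgeR FDR = 0.0186). In control, model and DSS rats Insig2 had 177 ± 41.9, 355 ± 109 and 307 ± 55.8 CPM, Usf2 50.3 ± 1.89, 71.5 ± 7.88 and 73.6 ± 3.41 CPM, and Mlx 72.8 ± 3.96, 55.6 ± 3.88 and 51.5 ± 3.19 CPM (mean ± SD, n = 3). For DSS against model their log2 changes were -0.20, 0.05 and -0.10 (edgeR FDR of 0.888 to 0.956). The ChREBP gene itself, Mlxipl, was not analysed here.

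Some genes of sugar and NADPH supply passed the test as well. Of 24 tested genes, edgeR called 0 in model against control (7 at an unadjusted p under 0.05 and 3 by DESeq2), 3 lower in DSS against model, and 4 lower and 1 higher in DSS against control. In those 2 DSS comparisons a p under 0.05 was reached by 12 and 15 of the 24, and DESeq2 called 8 and 11. Pklr, liver pyruvate kinase, had 483 ± 42.4, 571 ± 115 and 80.5 ± 18.3 CPM in control, model and DSS rats (mean ± SD, n = 3), and fell against the model group (log2 change -2.82 ± 0.229, edgeR FDR = 0.00266). Tkfc, triokinase, which phosphorylates glyceraldehyde from fructose, had 779 ± 70.6 CPM in control rats and went from 704 ± 72.7 CPM in model rats to 133 ± 2.20 CPM in DSS rats (log2 change -2.39 ± 0.146, edgeR FDR = 0.00163). Slc2a5, the fructose transporter GLUT5, had 19.1 ± 3.53 CPM in control rats and went from 28.5 ± 5.56 to 4.85 ± 1.16 CPM (log2 change -2.55 ± 0.240, edgeR FDR = 0.00434). Tkt, transketolase of the pentose phosphate pathway, was called lower against control at -1.46 ± 0.163 (edgeR FDR = 0.00183) and had 418 ± 70.5, 354 ± 94.1 and 152 ± 21.3 CPM in control, model and DSS rats. Gckr, the inhibitor of glucokinase, was called higher against control, at 0.74 ± 0.116 (edgeR FDR = 0.0079), but its level was highest in the model group, at 151 ± 12.9, 342 ± 47.7 and 253 ± 15.3 CPM in control, model and DSS rats. For model against control Gckr gave 1.18 ± 0.157 (edgeR FDR = 0.0244) and for DSS against model -0.43 ± 0.152 (edgeR FDR = 0.515). With a rat left out, Tkt kept its call. By edgeR, Tkfc had an FDR of 0.0146 and 0.0105 without DSS replicates 1 and 3, Pklr of 0.0103 to 0.0212 without any 1 DSS rat or model replicate 3, and Slc2a5 of 0.0201 to 0.0453 without any 1 DSS rat or model replicate 1 or 3 in DSS against model, and Gckr of 0.0177 to 0.0354 without any 1 rat in DSS against control. The medians of the list were 0.07, -0.40 and -0.34 in model against control, DSS against model and DSS against control.

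Other elongases, desaturases and acyl-CoA synthetases made up a list of 14 tested genes. By edgeR only Acsl5, an acyl-CoA synthetase, was called, lower in DSS against control at -2.19 ± 0.249 (edgeR FDR = 0.00331), and the medians were -0.21, 0.06 and -0.23 in the same order of comparisons, in which DESeq2 called 2, 1 and 3 and edgeR at an FDR of 0.05 passed 1, 1 and 4. Acsl5 had 497 ± 164, 248 ± 37.1 and 109 ± 15.03 CPM in control, model and DSS rats. Its edgeR FDR was 0.0154 to 0.0211 without any 1 DSS rat or control replicate 1. In glyceride synthesis, 19 genes tested with medians of 0.16, -0.12 and -0.20, edgeR called Pnpla5 lower in DSS against model and Agpat3 higher in DSS against control, and DESeq2 called 1, 2 and 5 genes. Pnpla5, a patatin-like lipase gene, had 683, 278 and 142 reads in the model rats and 0, 1 and 1 reads in the DSS rats, and no fold change is quoted at so few reads. By edgeR its FDR was 0.00266, and 0.0119 to 0.0295 without any 1 DSS rat or model replicate 2. Agpat3, an acyltransferase, stood at 26.5 ± 2.89, 61.5 ± 9.78 and 65.4 ± 6.81 CPM in control, model and DSS rats, with a log2 change of 1.30 ± 0.121 for DSS against control (edgeR FDR = 0.000736), 1.21 ± 0.161 for model against control (edgeR FDR = 0.0244) and 0.09 ± 0.158 for DSS against model (edgeR FDR = 0.921). Pnpla3, a known SREBP-1c target picked after its values were seen, had 443, 442 and 34.0 CPM in the control rats, 67.3, 14.5 and 41.5 CPM in the model rats and 1.196, 0.378 and 3.00 CPM in the DSS rats. All DSS rats lay below all others, and at an edgeR FDR of 0.0509 against the model group and 0.0525 against the control group it was not called.

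The last list holds genes tied to malonyl-CoA and its control, read here as RNA only. Cpt1a, the carnitine palmitoyltransferase of liver that malonyl-CoA inhibits, had 109, 98.6 and 108 CPM in the control rats, 140, 138 and 98.4 CPM in the model rats and 326, 281 and 319 CPM in the DSS rats. Every DSS rat lay above every other rat. Cpt1a rose against control by a log2 change of 1.55 ± 0.116 (edgeR FDR = 0.000271), and against the model group it was 1.30 ± 0.172 with an edgeR FDR of 0.0273. Its call against control was kept with any 1 rat left out. It was the only one of 12 tested genes called by edgeR in that list, in which DESeq2 called 1, 1 and 2 and the medians were -0.08, 0.07 and 0.03. With the FDR at 0.05 edgeR also passed Trib3 in DSS against control, at 2.64 ± 0.528 (edgeR FDR = 0.0342), with 1.66 ± 0.469, 5.76 ± 1.98 and 10.3 ± 5.67 CPM in control, model and DSS rats. The lists together gave 0, 4 and 8 calls by edgeR of 86 tested genes in the 3 comparisons (8, 12 and 25 by DESeq2), beside the shares of all genes given with the first list. Without DSS replicate 1 or without DSS replicate 3 the number in DSS against model was 0.

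**Figure D5:**
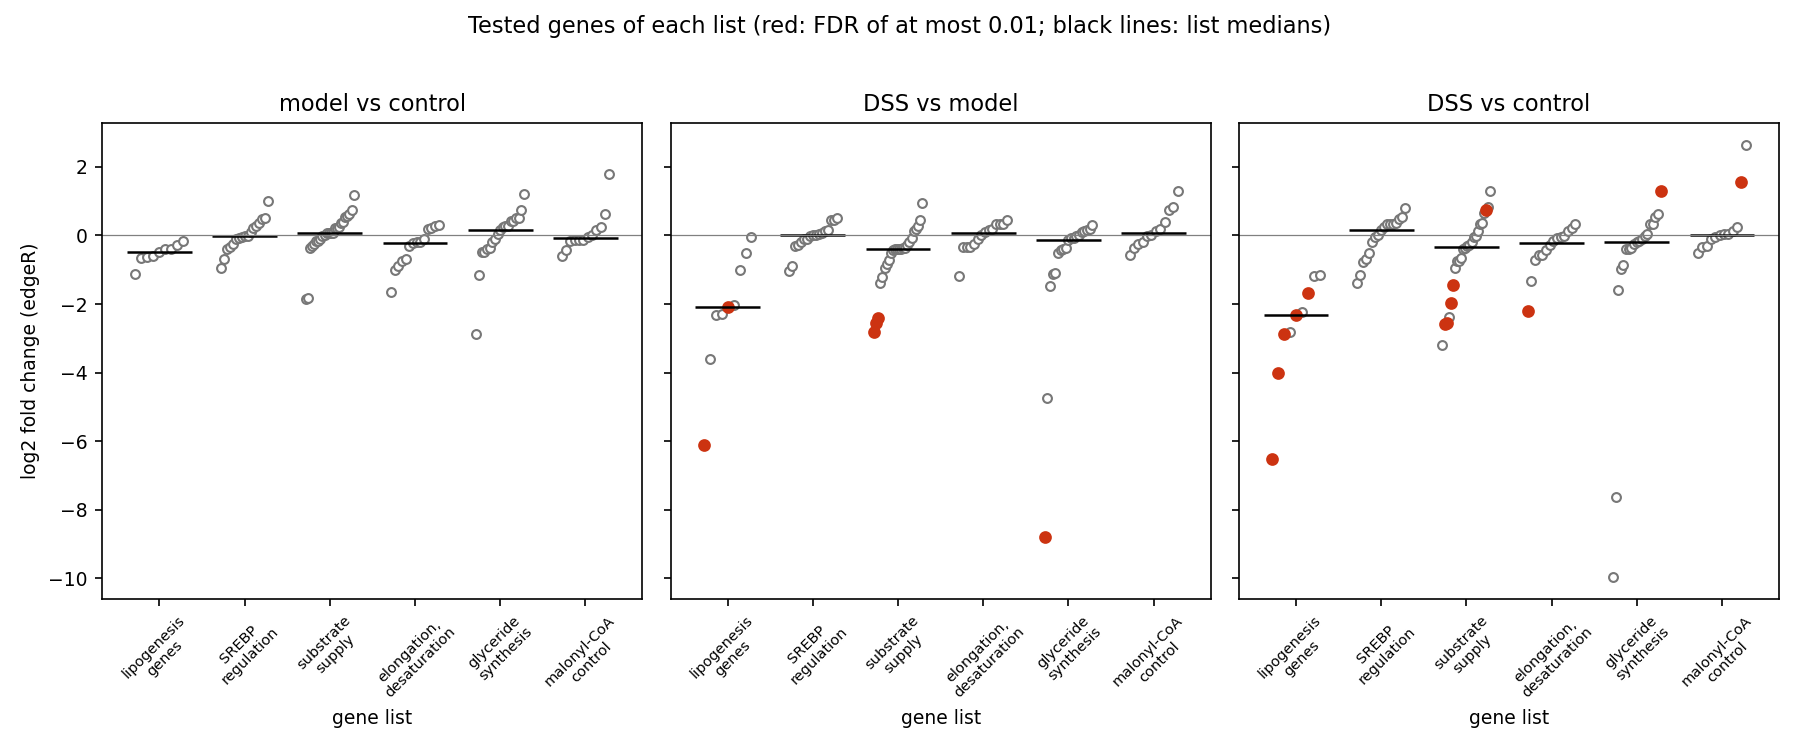
Log2 fold change by edgeR of each tested gene of the lipogenesis genes and of 5 pathway lists in the 3 comparisons, in red where called at an FDR of at most 0.01, with the median of each list as a line. The lipogenesis genes have medians of -0.48, -2.08 and -2.32, and the lowest points of the DSS comparisons are Pnpla5, whose fitted value rests on 0 to 1 reads in each DSS rat.

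The genes most like the lipogenesis genes were ranked by Pearson r over the 9 libraries with the mean of their standardised levels. They were Dlat, Fabp5, Tjp3, Acsl5, Ppid, Tkt, Dtnb, Pdk1, Fkbp4 and Ikbke, with r from 0.99 to 0.954. Fabp5, for example, had 80.5 ± 22.3, 28.9 ± 5.69 and 4.87 ± 0.822 CPM (mean ± SD, n = 3) in the control, model and DSS groups. Srebf1 alone was followed most closely by Tuba4a, Atad3a, Zfp266, Serbp1 and Acss2, at r of 0.96 to 0.946. Scd was followed by Tkfc, Tm6sf2, Pklr, Gbe1 and Eno1, at r of 0.987 to 0.958. The difference between groups enters every one of these r, and the points share libraries and depth.

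Markers of other cells were set beside the lipogenic genes, since adipocytes also make fatty acids. Of 8 adipocyte markers matched in the table, Adipoq had 0 reads in 8 libraries and 1 read in DSS replicate 3, and Retn had 0 reads in 8 libraries and 2 reads in model replicate 3. Others on the list were read in every library, with 943 to 1928 reads of Cidec, 139 to 454 of Cfd, 109 to 189 of Lipe and 3 to 42 of Fabp4. The summed adipocyte list, which reached 2414 to 3121, 1857 to 4067 and 3648 to 6271 CPM in control, model and DSS rats, was mostly Car3, which hepatocytes also express. Pparg, on the same list, was called higher in DSS against control at 1.57 ± 0.197 (edgeR FDR = 0.00295), from 2.72 ± 0.499 to 8.06 ± 0.397 CPM with the model group at 3.90 ± 0.821 CPM, and with an edgeR FDR of 0.0108 to 0.0155 without DSS replicate 1 or 3 or control replicate 1 or 2. Model replicate 2, low in Srebf1 and Fasn, had the highest summed endothelial markers, 280.5 CPM where the other libraries had 91.1 to 238.5 CPM, and 390.8 CPM of leukocyte and Kupffer cell markers, above the other model libraries at 174.9 and 272.3 CPM, with Kdr and Clec4f as the most abundant genes and no marker of either list at 0. Their part in the low lipogenic levels of that rat was not tested. Summed leukocyte and Kupffer cell markers in the DSS group, 238.8 to 340.1 CPM, lay within the range of the control group, 233.0 to 573.6 CPM. Stellate cell markers, led by Col3a1, summed to 206.4 to 370.7 CPM over the 9 libraries, bile duct markers, led by Epcam, to 15.5 to 30.4 CPM, and red blood cell markers, led by Hbb, to 195.5 to 714.7 CPM. By edgeR, Pparg was the only gene called in the lists of hepatocytes, of other cell types and of pericentral and periportal hepatocytes. DESeq2 called 2, 1 and 1 of 9 hepatocyte, 0, 1 and 2 of 6 adipocyte and 4, 0 and 2 of 8 periportal genes in the 3 comparisons. Of the pericentral genes it called 2 of 8, 1 of 7 and 1 of 7, and of all genes 2.05%, 1.18% and 6.09%. An unadjusted edgeR p under 0.05 was reached in model against control by 5 of 8 pericentral and 5 of 8 periportal genes, beside 13.2% of all genes. In the DSS comparisons it was reached by 2 and 2 of 7 and by 2 and 4 of 8, beside 8.02% and 24.3%. With 0.05 as the FDR threshold edgeR passed Apoa1 of the hepatocyte list, at 0.81 ± 0.160 (edgeR FDR = 0.0205), and Ass1 of the periportal list, at -0.84 ± 0.166 (edgeR FDR = 0.0202), both in DSS against control. Apoa1 had 989 ± 123, 1051 ± 529 and 1737 ± 298 CPM and Ass1 2064 ± 93.0, 1295 ± 141 and 1154 ± 256 CPM in control, model and DSS rats. Hepatocyte markers, led by Alb, summed to 137304 to 175027, 173267 to 220008 and 170386 to 213722 CPM in control, model and DSS rats. In DSS against control 3 of the 9 hepatocyte markers, Tat, Cps1 and Hnf4a, had a log2 change below 0, at -0.45, -0.08 and -0.27, none called by edgeR. In DSS against model the 9 ran from -0.13 to 1.06, 3 of them below 0 and none called by edgeR. For 2 of them, Cyp2e1 and Cps1, every DSS rat lay above every model rat, against 6.17% of all genes. Cyp2e1 had 1111 to 1241 CPM in model and 2013 to 3051 CPM in DSS rats. In model against control 4 of the 9, Tat, Cps1, Hnf4a and Cyp2e1, had every model rat below every control rat, against 9.94% of all genes. Their log2 changes were -0.79, -0.76, -0.41 and -0.63, none called by edgeR. The other 5 had a log2 change above 0. For 1 of these, Tf, every model rat lay above every control rat, against 11.2% of all genes. The sum led by Alb was also higher in the mean of the model group. The part of these markers in the lipogenic levels was not tested. Pericentral markers, led by Cyp2e1, summed to 2905 to 3470, 2135 to 2380 and 3064 to 4221 CPM in the control, model and DSS groups. Cyp2e1 itself had means of 1822, 1177 and 2445 CPM. Glul, at 367, 570 and 394 CPM, and Rhbg, at 5.82, 8.09 and 6.67 CPM, went the other way. In model against control 5 of the 8 pericentral genes had a log2 change below 0 and 3 above 0. Without overlap, 2 were lower, against 9.94% of all genes, and 2 higher, against 11.2%. Periportal markers summed to 90632 to 119144, 115851 to 150175 and 114602 to 145105 CPM in the same groups. The periportal sum is nearly all Alb, 87212 of 90632 CPM in control replicate 1, and Alb is also most of the hepatocyte sum. The log2 changes of the 8 periportal genes ran from -3.64 to 0.89 in model against control. They ran from -1.17 to 1.78 in DSS against control and from -0.61 to 2.49 in DSS against model.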

How the data were processed

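Polyadenylated RNA of 9 livers was sequenced. Reads were aligned with HISAT2 to Rnor_6.0, per the labels, and counted on exons without regard to strand with HTSeq 0.6.1, and the authors deposited the counts per gene without normalisation. Reads from overlapping genes or near-identical copies may be lost or misassigned, which was not tested. A table of newly assembled transcripts of unstated unit was not used.

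Each comparison was fitted on its 6 libraries with edgeR 4.0.16 (R 4.3.3, filterByExpr, TMM, robust glmQLFit, two-sided glmQLFTest, Benjamini-Hochberg FDR over all tested genes), which was tested on data simulated for DSS against model, where it called most large changes and none of the smallest, with a few false calls. The SE is the absolute log2 fold change divided by the square root of F. The alternatives were DESeq2 1.42.0, its size factors, library size alone, no filter, a fit of all 9 libraries, replicate number as a block, an FDR of 0.05 and each rat left out in turn. Likeness was computed on log2(CPM + 1) for genes with a mean of at least 10 CPM.

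The lipogenesis genes and all lists were chosen with earlier results of these data known. Named list genes are those called in a comparison, or at an FDR of 0.05 where a list had no call, and the most abundant marker of each list. Outside that rule, Pnpla3, Scd2, Trib3, Adipoq, Retn, Cfd, Cidec, Lipe, Fabp4, Tat, Cps1, Hnf4a, Tf, Glul and Rhbg were picked after seeing their values. A planned count of promoter motifs was not made, since the promoter table at hand is of the mouse. Mlxipl, Pgd, Elovl3, Ahsg, Lep, Plin1, Pecam1, Hba1 and Hba2 were not analysed here.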

Additional observations from a re-analysis of the deposited data

How the results depend on the processing

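For the 9 tested lipogenesis genes, 273 of the fold changes under the alternatives kept their direction and their side of the threshold, 22 newly passed, 25 no longer passed and 4 turned their sign. The turned values were small. Acaca in model against control was 0.0181 without model replicate 1 (range over rats left out -0.55 to 0.0181), Me1 in model against control was 0.27 without control replicate 2 (-0.47 to 0.27), and Acacb in DSS against model was 0.01 without DSS replicate 3 and 0.20 without model replicate 3 (-0.24 to 0.20). The number called in model against control was 0 by edgeR (2 at an unadjusted p under 0.05) and 1 by DESeq2. In DSS against model it was 2, but 1 with no filter, 6 by DESeq2, 1 with all 9 libraries in one fit, 4 at an FDR of 0.05 and 0 to 2 with a rat left out. In DSS against control it was 5, but 7 with library size alone, 4 with no filter, 6 with all 9 libraries, 9 by DESeq2, 9 at an FDR of 0.05 and 2 to 7 with a rat left out. Fits with a rat left out hold 5 libraries, and otherwise the cause was not tested. Over all genes, model against control had 10 calls, but 71 with no filter, 256 by DESeq2, 25 with all 9 libraries, 75 at an FDR of 0.05 and 0 to 10 with a rat left out. DSS against model had 17, but 11 with library size alone, 38, 147 and 57 with no filter, DESeq2 and an FDR of 0.05, and 2 to 12 with a rat left out. DSS against control had 187, but 489, 769, 113 and 804 with no filter, DESeq2, all 9 libraries and an FDR of 0.05, and 86 to 132 with a rat left out. Library size alone moved the median log2 fold change of all genes to -0.145 in model against control and -0.144 in DSS against control, and the lower share of calls in the latter from 104 of 187 to 181 of 238, so the fold changes given are relative to the TMM scale. None of the scaling alternatives turned the sign of any of the 9 genes.

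The labels do not say that the replicate number pairs rats. Rats of the same number did not deviate together (r from -0.26 to -0.03). With 3 rats a group, these r cannot exclude a pairing by handling or order. With the replicate block, 0, 1 and 5 of the lipogenesis genes and 0, 7 and 104 of all genes were called in the 3 comparisons, the 0 of all genes beside 1166 at an unadjusted p under 0.05, and Me1 had an edgeR FDR of 0.0126 in DSS against model. At an FDR of 0.05, 0 to 0, 2 to 4 and 6 to 8 of the lipogenesis genes passed with a rat left out, an alternative added after seeing the data. Srebf1 had an edgeR FDR of 0.0267 in DSS against control with all 9 libraries in one fit. The pathway lists, put through the same alternatives after seeing the data, gave 0, 4 and 8 calls, but 3, 7 and 12 with no filter, 8, 12 and 25 by DESeq2, 2, 5 and 9 with all 9 libraries, and 3, 7 and 21 at an FDR of 0.05. Their ranges with a rat left out were 0 to 0, 0 to 3 and 7 to 10. The called list genes kept their sign under each alternative, and 35 of 156 of their values no longer passed. Elovl6, at 0 to 11 reads, was tested only with no filter.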
